A study of Mus musculus with 4 samples.

Results

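Satellite cells, the stem cells of skeletal muscle, were followed through 9 genes that mark them: Pax7, Pax3, Cdh15, Vcam1, Sdc4, Chodl, Calcr, Megf10 and Spry1. They were taken by symbol as known markers, in a choice made with earlier results of these data known, and all 9 were found among the 21644 protein-coding genes of the mm10 annotation. Chromatin immunoprecipitation with sequencing had mapped H3K27ac, the acetylation of lysine 27 of histone H3, in gastrocnemius, a calf muscle. The mice were adult females of 2 months from B6CASTF1/J, a hybrid strain. There was 1 group of samples, made of 2 biological replicates of 2 technical libraries each, and each replicate was a pool of 2 tissue samples. No treatment, genotype or time was compared, so no test between groups exists, and the spread was read from the peak lists of replicates 1 and 2. Another list, called replicated, draws on both and gives the main values; its peaks are called regions here, and a gene without one had none detected. Peak lists hold no read counts, so depth is unknown.

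A satellite cell lies between the muscle fibre and its basal lamina and stays quiescent until injury or growth calls on it. Pax7 and Pax3 are the transcription factors that specify the lineage, and the other markers hold the cell in its niche, receive signals there or damp growth factor signalling. H3K27ac sits at active promoters and enhancers. In whole muscle the satellite cells are a small minority among fibre nuclei, vessel cells and connective tissue cells, so a region in such a list need not come from satellite cells. Fewer acetylated cells and less acetylation per cell cannot be told apart in these pooled tissues. The 8 fibre genes checked were Acta1, Ckm, Myh4, Tnnt3, Actn3, Pvalb, Mylpf and Tnni2. All 8 had a region at a start in both replicates, where 58.6% of all protein-coding genes did. Of 8 genes of other tissues, 1 (Apoa2) did in the replicated list (61.2% of all genes) and 0 did in both replicates. The endothelial, fibro-adipogenic and smooth muscle genes used further on all did so too, so the count does not single out fibres. All these genes were chosen with earlier results of these data known.

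The sequence just upstream of 5 of the genes is shown first, because their CpG content differs widely and is set beside the acetylation of the starts further on. Each line gives the 250 bases before the outermost start of the coding transcripts in the mm10 genome (RefSeq sequence of GRCm38.p6), read 5′ to 3′ on the strand of the gene, with CG dinucleotides in capitals. The windows are chr3:37639697-37639946 (plus strand) for Spry1, chr2:164443187-164443436 (minus) for Sdc4, chr1:78197135-78197384 (minus) for Pax3, chr6:3764715-3764964 (minus) for Calcr and chr3:116129689-116129938 (minus) for Vcam1. They hold 23, 19, 10, 2 and 0 CG dinucleotides in that order.
Spry1: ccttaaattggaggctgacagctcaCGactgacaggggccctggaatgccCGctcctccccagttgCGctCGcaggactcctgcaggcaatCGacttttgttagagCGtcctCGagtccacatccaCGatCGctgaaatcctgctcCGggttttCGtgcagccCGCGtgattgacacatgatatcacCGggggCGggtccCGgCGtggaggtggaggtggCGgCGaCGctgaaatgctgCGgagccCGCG
Sdc4: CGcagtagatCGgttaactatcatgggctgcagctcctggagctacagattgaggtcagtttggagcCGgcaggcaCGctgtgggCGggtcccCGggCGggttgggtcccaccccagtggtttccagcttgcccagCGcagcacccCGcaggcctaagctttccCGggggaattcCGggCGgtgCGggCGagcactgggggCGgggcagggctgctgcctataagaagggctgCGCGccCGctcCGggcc
Pax3: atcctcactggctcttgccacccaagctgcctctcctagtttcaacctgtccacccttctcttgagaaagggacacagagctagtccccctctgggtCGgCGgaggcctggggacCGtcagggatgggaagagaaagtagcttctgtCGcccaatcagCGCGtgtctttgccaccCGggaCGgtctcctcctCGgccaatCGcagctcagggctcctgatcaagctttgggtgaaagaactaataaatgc
Calcr: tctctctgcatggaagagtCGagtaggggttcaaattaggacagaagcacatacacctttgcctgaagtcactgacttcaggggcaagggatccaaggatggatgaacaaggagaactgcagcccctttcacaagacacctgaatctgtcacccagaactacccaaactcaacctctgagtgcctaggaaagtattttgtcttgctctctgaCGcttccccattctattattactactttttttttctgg
Vcam1: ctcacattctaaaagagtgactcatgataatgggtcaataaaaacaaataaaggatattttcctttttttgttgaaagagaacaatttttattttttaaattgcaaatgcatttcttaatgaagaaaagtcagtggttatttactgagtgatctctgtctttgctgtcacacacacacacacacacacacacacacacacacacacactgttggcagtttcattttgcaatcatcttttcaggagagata

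Acetylation was found at the starts of 7 of the 9 genes and was lacking around the starts of the other two. A region within 1000 bp of an annotated start was present for Pax7, Cdh15, Vcam1, Sdc4, Chodl, Megf10 and Spry1 in the replicated list, and for the same 7 genes in replicate 1 and in replicate 2. Pax3 and Calcr had none in any of these lists. Beside them, 61.2% of all protein-coding genes had such a region in the replicated list against 58.9% in replicate 1, 61.1% in replicate 2 and 58.6% in both replicates. In the list of both replicates pooled the share was 61.6%, and the markers with a region were again 7. For 9 genes, 7 (77.8%) is near that background and is not a result about the markers as a group. Over the gene bodies and 50 kb to each side there were 55 regions in the replicated list against 39 in replicate 1 and 59 in replicate 2. The same 7 genes had at least 1 region there in the replicated list, where 81.1% of all genes did, and in the pooled list (81.4% of all genes). In replicate 1 they numbered 7 (79.6% of all genes), and in replicate 2 they numbered 8 (81.2%), with Calcr added.

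**Figure D1:**
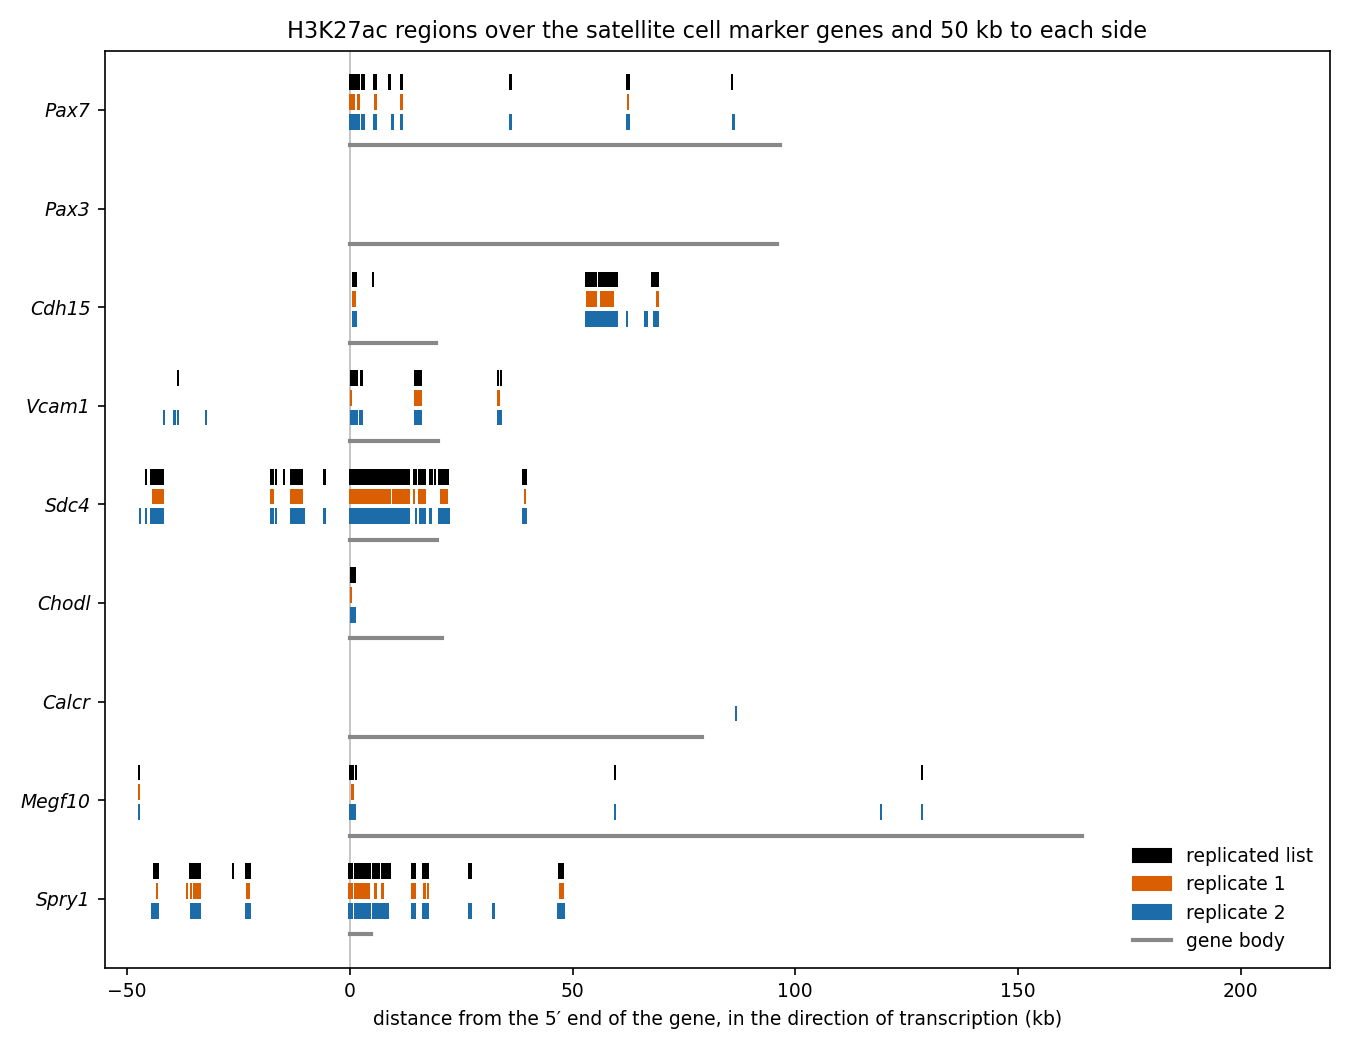
Regions of the replicated list (black), replicate 1 (orange) and replicate 2 (blue) over each gene and 50 kb to each side, against distance in kb from the outermost coding start in the direction of transcription. The grey line is the gene body, and regions narrower than 0.5 kb are drawn 0.5 kb wide. Sdc4 and Spry1 carry 14 and 13 regions of the replicated list, Chodl carries 1, and Pax3 and Calcr carry none.

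Of the 7 start regions, 4 to 6 were weaker than that of the median gene, depending on the list. The signal value that the authors gave each region, on a scale not stated and so compared only within a list, had a median of 27.4 at the 13247 genes with a start region in the replicated list. Of the 7 markers with a region, 5 lay below that median, and Cdh15 and Sdc4 lay above it. In replicate 1 the median over genes was 22.3 and 6 markers lay below it, Sdc4 being the exception. In replicate 2 it was 28.9 and 4 lay below, with Cdh15, Sdc4 and Spry1 above. Pax7, Vcam1, Chodl and Megf10 were below the median in every one of these lists. A median splits the genes evenly by definition, so these counts out of 7 are not a result about the markers as a group.

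**Figure D2:**
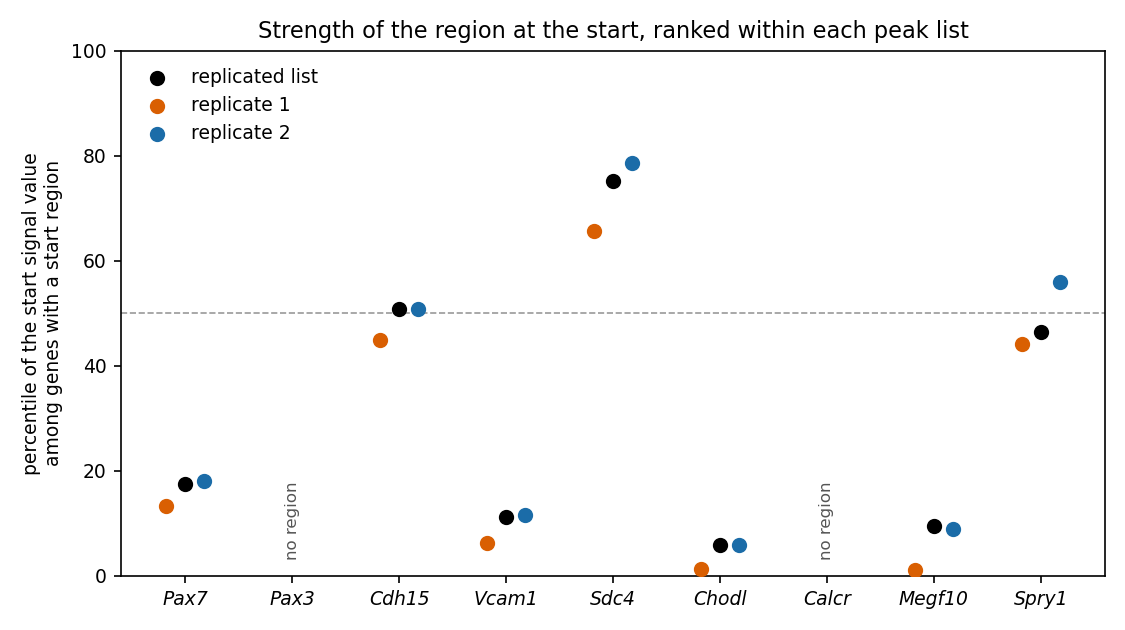
Percentile of each marker's strongest start region by signal value, among all genes that have a start region in the same list (13247 genes in the replicated list against 12746 in replicate 1, 13227 in replicate 2). The dashed line is the median gene; Sdc4 is above it in every list and Pax7, Vcam1, Chodl and Megf10 reach percentile 18 at most in any list.

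Pax7, the paired-box factor that defines the satellite cell, was acetylated at its start and along its introns. The gene lies at chr4:139737062-139833528 on the minus strand. Its start region, chr4:139831229-139833746, was 2518 bp wide. Its signal value was 10.7 in the replicated list against 8.05 in replicate 1 and 11.9 in replicate 2. Among genes with a start region these stood at percentiles 17.5, 13.2 and 18, so the signal value at the start was low in each list. By length the start was not low. Acetylated sequence within 5 kb to each side came to 3758 bp, with 2209 and 3798 bp in replicates 1 and 2. Among all genes these lengths stood at percentiles 80.4, 71.0 and 80.7. The other 7 regions of the window all lay in introns, 2.0, 4.7, 8.1, 10.8, 35.1, 61.4 and 85.1 kb downstream of the nearest start, with signal values from 2.65 to 4.51. Of the 8 regions, 4 were shared with both replicates, meaning that at least 50% of the shorter region overlapped, and the region at 8.1 kb was shared with neither. Beyond the gene and its start region none followed for 111.7 kb downstream or 134.2 kb upstream in the replicated list, so all acetylation of the window was at Pax7 itself. Regions covered 7520 bp of its window in the replicated list against 3953 bp in replicate 1 and 8072 bp in replicate 2.

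The intronic region nearest to the Pax7 start is shown because it holds matches to motifs of the muscle E-box class and of RBPJ, the DNA-binding partner of Notch. It had a signal value of 4.38, below the 4.51 of the intronic region at 61.4 kb. Such matches are common: in windows of 300 bases on the summits of all regions, 19.7% held CAGCTG and 27.6% TGGGAA. The region shown was shared with replicate 2 and not with replicate 1. The window of 300 bases on its summit is chr4:139830631-139830930, printed on the minus strand, with the matches to TGGGAA and CAGCTG, on either strand, in capitals.
Pax7 intron 1: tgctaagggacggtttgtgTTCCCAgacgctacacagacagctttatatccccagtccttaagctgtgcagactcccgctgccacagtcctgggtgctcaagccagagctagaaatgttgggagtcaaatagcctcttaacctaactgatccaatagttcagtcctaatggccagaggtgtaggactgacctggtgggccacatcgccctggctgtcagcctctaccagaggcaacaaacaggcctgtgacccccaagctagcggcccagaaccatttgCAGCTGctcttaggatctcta

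Pax3, the paralogue that acts earlier in the embryonic lineage and in satellite cells of some muscles, lay in a bare stretch. Its gene, chr1:78101267-78197134, had 0 regions and 0 acetylated bp in its window in all 3 lists. The stretch without a region around it ran from 77516382 to 78423732 on chromosome 1, 907.4 kb in the replicated list against 908.1 kb in replicate 1 and 907.4 kb in replicate 2. The nearest region to a Pax3 start was 226.6 kb away and nearest to Farsb, a subunit of phenylalanyl-tRNA synthetase. Sgpp2, a sphingosine phosphatase gene, also starts inside the bare stretch. Pax7 was alone in its family: 1 of the 9 Pax genes had a start region in each of the 3 lists, and Pax1, Pax2, Pax4, Pax5, Pax6, Pax8 and Pax9 had none.

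Cdh15, which encodes M-cadherin, the adhesion molecule between satellite cell and fibre, had a start region of about median strength. The region, chr8:122848344-122849449, was 1106 bp wide. Its signal value was 27.8 in the replicated list against 20.6 in replicate 1 and 29.3 in replicate 2, at percentiles 50.8, 44.8 and 50.8 among genes with a start region. It began 378 bp downstream of the GENCODE start and covered the RefSeq start, 122848374, which lies 408 bp downstream of the GENCODE start. The gene body, chr8:122847966-122867397, held 1 further region, 262 bp wide with a signal value of 2.58 and shared with neither replicate. The remaining 4 regions of the window were nearer to the start of Ankrd11, a chromatin regulator, than to that of Cdh15. Thus 1368 bp of the acetylated sequence of this window lay at the start or in the body of Cdh15, out of 10196 bp in all. Of 7 cadherin genes 6 had a start region in each list: beside Cdh15 these were Cdh13 with a signal value of 40.6, Cdh5 with 18.9, Cdh2 with 7.98, Cdh11 with 7.08 and Cdh4 with 3.67, and Cdh1 had none.

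The part of the Cdh15 summit window outside annotated UTRs is shown because the region, of about median strength, lay near a start poor in CpG. The 1000 bp around the GENCODE start held 20 CG dinucleotides, against a median of 47 over all genes. Most of these bases lay upstream of the region, and no count was made around the RefSeq start. The part shown is chr8:122848488-122848683, 196 bases on the plus strand. No searched motif matched in the 300 bases on the summit, so it is printed without capitals.
Cdh15: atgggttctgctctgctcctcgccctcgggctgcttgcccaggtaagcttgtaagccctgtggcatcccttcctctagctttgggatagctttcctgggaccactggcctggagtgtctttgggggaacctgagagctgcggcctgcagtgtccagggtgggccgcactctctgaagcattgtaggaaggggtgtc

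Vcam1, an adhesion receptor for integrin alpha 4 beta 1 that endothelium and other cells of muscle can also make, had weak acetylation around its start. In the gene, chr3:116109949-116129688 on the minus strand, the region over the annotated start at 116129457 (chr3:116128855-116129666) was 812 bp wide. Its signal value was 7.08 in the replicated list against 5.21 in replicate 1 and 7.83 in replicate 2, at percentiles 11.2, 6.15 and 11.5 among genes with a start region. A second start region, 748 bp wide, had a signal value of 2.93 and was not shared with replicate 1. A wider region of 1841 bp in the gene body, 14.2 kb downstream with a signal value of 5.36, was shared with both replicates. The start regions also lay within 1000 bp of the start of Gm43109, an antisense transcript, and acetylation has no strand, so the starts cannot be told apart. Across the 7 regions of the window, 7 were shared with replicate 2 and 3 with replicate 1, and acetylated sequence came to 2411 bp in replicate 1 and 6371 bp in replicate 2. Of its relatives, Icam1 had a start region with a signal value of 7.98 and Madcam1 had none.

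Sdc4, which encodes syndecan-4, a heparan sulphate proteoglycan that binds growth factors and matrix, carried the strongest acetylation of the markers. A single region, chr2:164430348-164444139, ran 13792 bp over the start and far into the gene body and ranked 163 by width among the 84450 regions on autosomes and X. The signal value at the start was 39.4 in the replicated list against 28.2 in replicate 1, where the stretch was called as 2 regions, and 42.1 in replicate 2. These stood at percentiles 75.2, 65.7 and 78.7 among genes with a start region, the highest of the markers in each list. Acetylation covered 89.9% of the Sdc4 gene body (chr2:164424247-164443887) in the replicated list against 79.7% in replicate 1 and 83.8% in replicate 2, where the median gene body was covered over 4.22%, 2.89% and 4.24%. Of the 14 regions of the window, 8 were nearer to the start of another gene (Sys1, Dbndd2 or Matn4), among them regions with signal values of 38.2 at Sys1 and 37.3 at Dbndd2. Syndecan-4 is made by many cell types, and the other syndecans, Sdc1, Sdc2 and Sdc3, had start regions too, with signal values of 6.95, 16.7 and 12.4.

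Chodl, which encodes the membrane lectin chondrolectin, had 1 weak region and nothing else. It lay at chr16:78931014-78932245, over the annotated start at 78931277 and 66 bp downstream of the outermost start. It had a signal value of 4.64, and 3.55 and 5.15 in replicates 1 and 2. Among genes with a start region it stood at percentiles 5.79, 1.33 and 5.86 in these lists. Its width was 1232 bp in the replicated list against 387 bp in replicate 1 and 1208 bp in replicate 2. Downstream of it no region followed for 5688.8 kb in the replicated list against 5689.8 kb in replicate 1 and 5688.8 kb in replicate 2. That stretch ranked 8 by length among the 84430 stretches between neighbouring regions of the replicated list, and 4 protein-coding genes start inside it: Tmprss15, Ncam2, A730009L09Rik and Gm21833. Layn, a related lectin gene, had a start region with a signal value of 6.30.

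Calcr, the calcitonin receptor that helps to keep satellite cells quiescent, had no region in its gene or window in the replicated list or in replicate 1. All 4 annotated starts of the gene, chr6:3685680-3764714 on the minus strand, were bare in each list. Replicate 2 had 1 region of 210 bp with a signal value of 3.13, at 7.4 kb past the 3′ end of the gene and 74.7 kb from the nearest start. The stretch without a region was 347.1 kb long in the replicated list against 347.3 kb in replicate 1 and 289.5 kb in replicate 2, and no other protein-coding gene starts inside it. Calcrl, the related receptor of adrenomedullin and calcitonin gene-related peptide that vessel cells use, had a start region with a signal value of 11.4, with 8.09 in replicate 1 and 12.7 in replicate 2. The RAMP proteins, which pair with both receptors, were split: Ramp1 and Ramp2 had start regions with signal values of 11.6 and 26.7, and Ramp3 had none.

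Megf10, a scavenger-type receptor with EGF repeats that acts with Notch in satellite cells, was weak and differed between the replicates. The gene is chr18:57133090-57297467. At its start the replicated list held 2 regions of 475 and 555 bp, with signal values of 6.18 and 3.59. The start signal value was 3.54 in replicate 1 and 6.45 in replicate 2, and the percentiles among genes with a start region were 9.39, 1.12 and 8.92 in the 3 lists. The first region, over the start itself, was shared with replicate 2 and not with replicate 1. A region of 360 bp with a higher signal value of 6.95 lay 47.3 kb upstream and was shared with both replicates. Its gene body of 164378 bp was covered over 1.15% in the replicated list against 0.296% in replicate 1 and 1.5% in replicate 2. Of its relatives, Megf11 had no start region and Megf6 had one with a signal value of 2.04 that replicate 1 lacked.

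Spry1, which encodes Sprouty1, an inhibitor of receptor tyrosine kinase signalling needed for the return to quiescence, was acetylated throughout its small gene and beyond. The gene, chr3:37639947-37644598, was covered over 98.1% of its length in the replicated list against 95.6% in replicate 1 and 97.4% in replicate 2. Its 2 start regions, 1288 and 3850 bp wide, had signal values of 22 and 25.8. The strongest signal value at the start was 25.8 in the replicated list against 20.3 in replicate 1 and 31.6 in replicate 2, at percentiles 46.4, 44.1 and 55.9 among genes with a start region, on both sides of the median gene. A further 10 regions on both sides had the start of Spry1 as their nearest coding start, from 43.9 kb upstream to 26.4 kb downstream. The strongest of these were the upstream regions at 22.2 and 33.4 kb, with signal values of 11.3 and 10.6, both shared with both replicates. Between them, a weaker region at 26.1 kb (signal value 2.97) lay within 1000 bp of the start of 4930594O21Rik, a long noncoding RNA gene. The start regions also reached within 1000 bp of the models Gm42922 and Gm43820, which the annotation lists as to be tested. The other genes of the group, Spry2, Spry4, Spred1 and Spred2, all had start regions in each list, with signal values of 17.1 to 46.3.

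The upstream region at 33.4 kb is shown because it was 1 of the 2 strongest regions of Spry1 away from its start and holds motif matches. The stronger of the 2, at 22.2 kb, had no match to a searched motif in the 300 bases on its summit. The window on the summit of the region at 33.4 kb is chr3:37605373-37605672, plus strand, with matches to CATCTG and TGGGAA, on either strand, in capitals.
Spry1 upstream: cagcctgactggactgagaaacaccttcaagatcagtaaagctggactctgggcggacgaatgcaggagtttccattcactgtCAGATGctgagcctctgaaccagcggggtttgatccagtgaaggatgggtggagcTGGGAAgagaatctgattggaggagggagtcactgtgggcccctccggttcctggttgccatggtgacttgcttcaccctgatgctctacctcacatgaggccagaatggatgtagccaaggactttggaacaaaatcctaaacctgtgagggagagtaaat

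Over all markers, 42 of the 55 regions lay at a start (10), in the gene body (17) or in flanks where the marker's own start was the nearest (15), and the other 13 lay in flanks nearer to the start of another gene. Of the 17 in gene bodies, 1 in Megf10, 128.2 kb from its own start, was also nearer to another start, that of Prrc1 at 93105 bp. Of the 55, 32 (58.2%) were shared with both replicates, beside 63.3% of all regions. Sharing followed strength here as in the whole list: 22 of 24 regions of the marker windows at or above the list's median signal value of 4.77 were shared with both, and 10 of 31 below it. Over all regions these shares were 96.5% and 30.0%. The 24 and the 31 both include regions nearer to the start of another gene. Replicate 1 shared 32 of the 55 regions and replicate 2 shared 49. The list of replicate 1 was shorter as a whole, with 70953 regions covering 85.1 Mb against 86937 covering 117.8 Mb.

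CpG content of the start did not sort the markers into acetylated and bare. Counted in the 1000 bp around the start richest in CpG, Spry1 had 101 CG dinucleotides, Pax7 78, Pax3 64, Sdc4 55, Megf10 51, Calcr 44, Chodl 29, Cdh15 20 and Vcam1 15. Of all genes with 75 or more, 91.3% had a start region, with a median signal value of 33.8, above both Spry1 (25.8) and Pax7 (10.7). Of genes with 48 to 74, 87.6% had one, and Pax3 was among the 666 of 5354 without. The median in that range was 28.4, with Sdc4 (39.4) above it and Megf10 (6.18) below. Of genes with 15 to 47, 55.2% had one at a median of 18.3, with Cdh15 (27.8) above and Vcam1 (7.08) and Chodl (4.64) below. Calcr was among the 2447 of these 5463 genes without. For Cdh15 most of the counted bases lay upstream of its start region, so its count and its signal value describe mostly different sequence.

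**Figure D3:**
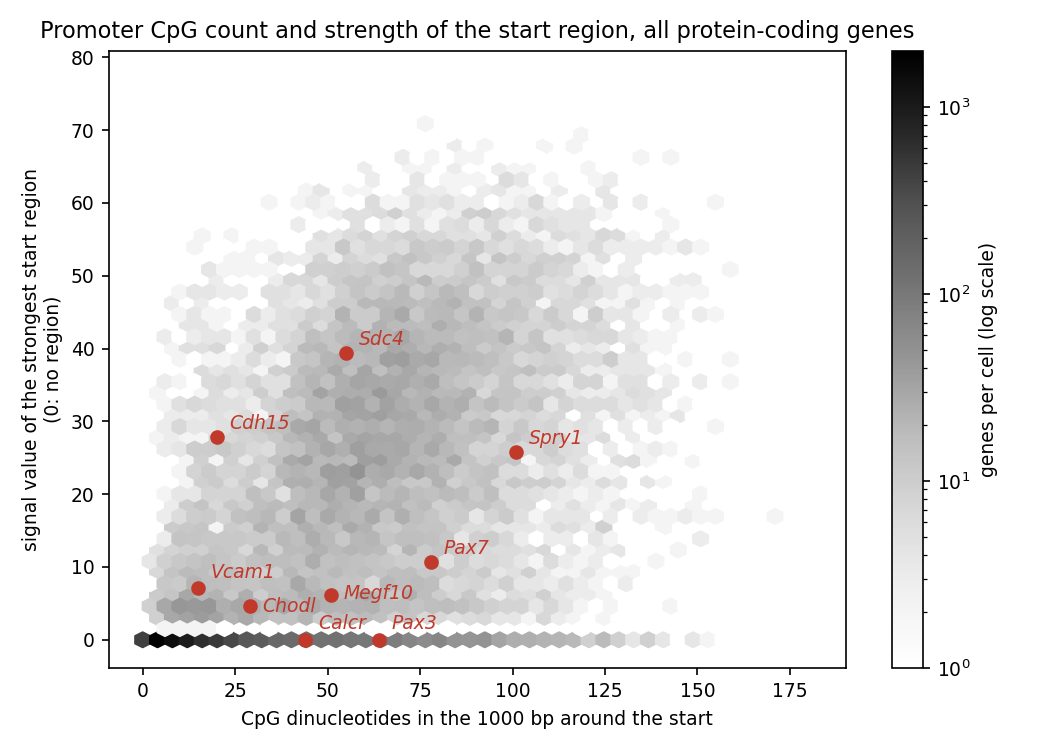
CG dinucleotides in the 1000 bp around the start (horizontal) against the signal value of the strongest start region in the replicated list (vertical, 0 where there is none) for all protein-coding genes, with darker cells holding more genes on a log scale and the markers in red. Pax3 and Calcr lie at 0 with 64 and 44 CG dinucleotides, and Cdh15 reaches 27.8 with 20, counted mostly upstream of its region.

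Motif matches under the markers' own regions were counted as letters of the reference genome, not as sites. The alleles of the hybrid mice were not read. In windows of 300 bp on the 42 summits, CAGCTG was found in 8 (19.0%, beside 19.7% of all regions), CACCTG in 9 (21.4% beside 20.7%) and CATCTG in 10 (23.8% beside 21.3%), on either strand. TGGGAA, the core bound by RBPJ, was found in 16 (38.1% beside 27.6%), at Pax7, Vcam1, Chodl, Megf10 and Spry1. Spry1 supplied 12 of the 42 windows and more of these matches than any other marker, and Cdh15 and Sdc4 had none. GGAATG, the TEAD core, which can overlap TGGGAA by sharing GGAA, was found in 8 (19.0% beside 15.6%). The AP-1 motif TGANTCA, the MEF2 motif and the ETS motif CCGGAAG were each found in 1 (2.38% of the 42, beside 8.48%, 4.60% and 3.06%). Paired homeobox motifs with a spacer of 2 or 3 bases, the paired-domain core GTCACGC, the sine oculis motif TCAGGTTTC and the full NFI palindrome were found in 0, and in 0.0225% to 1.05% of all regions. Median GC content was 50.3% in these regions and 48.1% in all regions.

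The lists of other satellite cell genes and of most other cell types of the muscle had longer median acetylated stretches at their starts than the markers. All these lists were chosen with earlier results of these data known, so their differences are no independent contrast between cell types. All 18 genes of a second satellite cell list had a start region in both replicates, beside 58.6% of all protein-coding genes. Their median acetylated length was 6049 bp in the 10000 bp around a start, beside 1271 bp for the 9 markers and 1469.5 bp for all genes. Many of these 18 also work in fibres or vessels: Itga7, the laminin receptor subunit (9858 bp), Des, the intermediate filament of muscle (9728 bp), and Cav1, of caveolae (8134 bp), had the longest. Fgfr4, a growth factor receptor chosen here after its values were seen, had 568 bp, with 497 and 673 bp in replicates 1 and 2, which is below the marker median in the replicated list. Myf5, the myogenic factor that Pax7 activates, had 5232 bp, beside 3882 and 4987 bp in replicates 1 and 2. Of 20 signalling partners of the markers, of which Itgb1 and Fgfr1 are also in that list, 18 had a start region, beside 61.2% of all genes. Ramp3 and Wnt7a, a ligand that drives satellite cell expansion, had none. The median length of the 20 was 4742 bp, with Notch1, a receptor (8488 bp), Jup, plakoglobin (8156 bp), and Fzd7, a Wnt receptor (7109 bp), the longest. Itga4, the integrin partner of Vcam1, had a signal value of 9.01, and Ctnnb1, Ctnna1 and Ctnnd1, the catenins that bind cadherins, had 25.7, 43.3 and 43.6. Itgb1, the beta subunit that pairs with Itga4, had 47.0. Fgfr1, Fgf2 and Fgf6, a receptor and ligands whose signalling Sprouty1 restrains, had 33.8, 26.8 and 32.5. Grb2 and Sos1, adaptor and exchange factor of the same pathway, had 22 and 33.1. Sdcbp and Prkca, which encode syntenin and a kinase that act with syndecans, had 43.2 and 41.7, and Carm1, a methyltransferase of Pax7, had 39.5.

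Marker lists of the other cells gave medians of 9429.5 bp for fibres, 6920.5 bp for fibro-adipogenic cells, 6351 bp for endothelium and 5044 bp for smooth muscle and pericytes. All genes of these 4 lists had a start region in the replicated list, beside 61.2% of all protein-coding genes. The longest stretches were those of Myh4, Tnnt3 and Tnni2 in fibres, Dcn, Pdgfra and Col1a1 in fibro-adipogenic cells, Egfl7, Erg and Cdh5 in endothelium, and Pdgfrb, Cspg4 and Tagln in smooth muscle and pericytes. The 8 macrophage and leukocyte genes had a median of 234 bp with 4 start regions, and the 8 genes of other tissues a median of 0 bp with 1. Of the macrophage and leukocyte genes, 2 had a start region in both replicates, where 58.6% of all genes did. The start signal value of Cd68 was 42.7 in the replicated list and 3.40 in replicate 1, and replicate 2 had no start region for it. Cd68, Csf1r and C1qa had the longest of the macrophage list, and Ptprc, Adgre1, Cx3cr1 and Itgam lacked a start region in the replicated list, as did Alb, Myh6, Nppa, Neurod1, Gfap, Ins2 and Cdx2 of the other tissues. The median of the 9 satellite cell markers was 533 bp in replicate 1 and 1520 bp in replicate 2, beside 1184.5 and 1467 bp over all genes. In the pooled list it was 1589 bp, beside 1476 bp over all genes. So the marker median lay below that of all genes in the replicated list and replicate 1, and above it in replicate 2 and the pooled list, and no direction is read from it. The part of other cell types in the regions at Vcam1, Sdc4 and Spry1 was not tested.

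**Figure D4:**
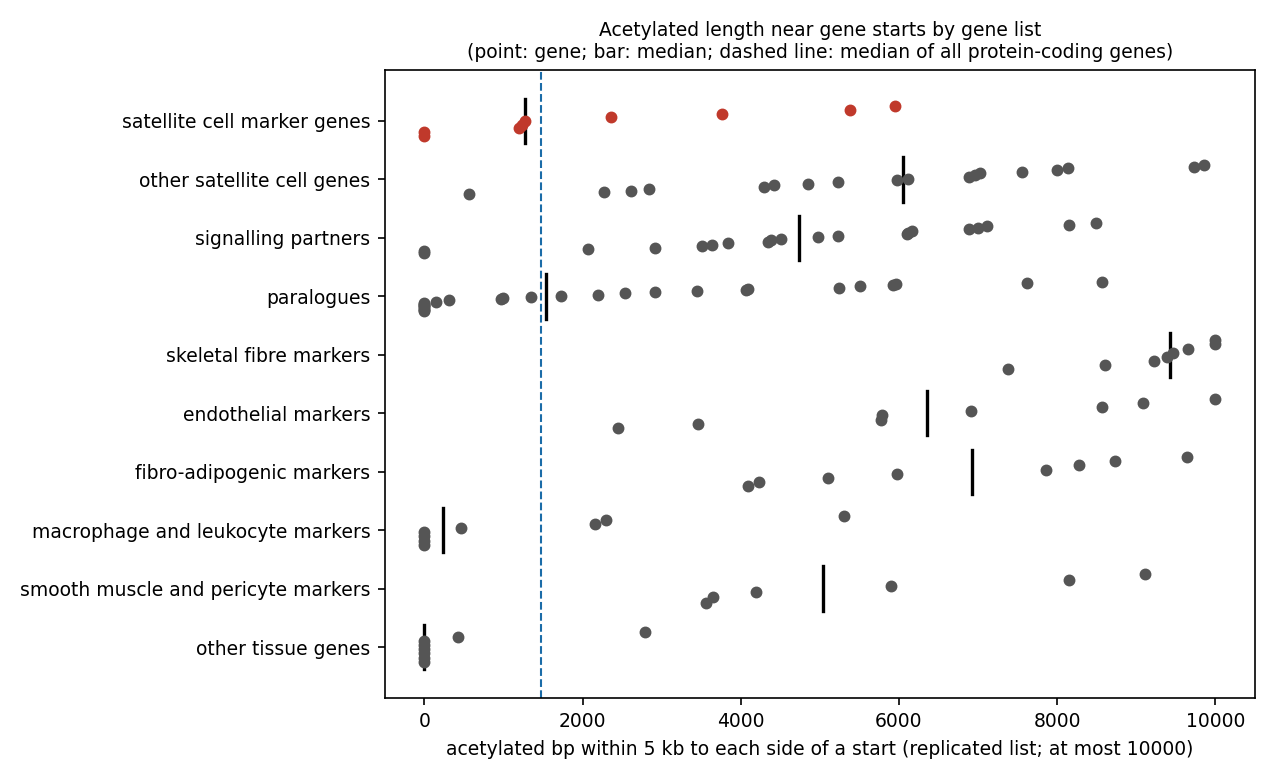
Acetylated bp within 5 kb to each side of a start in the replicated list (horizontal, at most 10000) for each gene of each list; bars are list medians and the dashed line is the median of all protein-coding genes. The markers (red) run from 0 bp for Pax3 and Calcr to 5954 bp for Sdc4.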

How the data were processed

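H3K27ac chromatin immunoprecipitation libraries of gastrocnemius were deposited as 4 peak lists on mm10. Per the deposited descriptions, 1 list came from the alignment of replicate 1, 1 from that of replicate 2 and 1 from both pooled, and the replicated list drew on both. The aligner, the peak caller and the thresholds it applied were not given in the sources used here. Control libraries were not used here. The authors deposited for each peak a signal value, on a scale not given in the sources used here, and a display score, which was not used. They also deposited −log10 q values and summit positions. The lists hold no counts, so no interval that needs depth was computed.

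Genes were the 21644 protein-coding genes of GENCODE M21 on autosomes and X. A start region is one within 1000 bp of the start of any coding transcript of the gene. Windows were the gene body and 50 kb to each side. Acetylated length was the base pairs covered within 5 kb to each side of a start, taking the start with the largest value. A region counted as shared where at least 50% of the shorter region overlapped. CG dinucleotides were counted in the 1000 bp around each start, and motifs, as letters on both strands, in 300 bp on each summit. RefSeq starts (GRCm38.p6) were at hand for 6 of the 9 markers. The computation used Python 3.11.15, numpy 2.4.6, pandas 2.3.3, pysam 0.24.0 and matplotlib 3.10.9, and the overlap code was checked on simulated data.

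All 9 markers are named. Genes of the other lists are named where they are a paralogue or partner of a marker, lack a start region or are among the 3 with the longest acetylated stretches, and distal regions where they are strong for their marker. Fgfr4 and Myf5 were added outside this rule. The markers and lists were chosen with earlier results of these data known. Alternatives were the pooled list, each replicate alone, −log10 q of at least 5, other windows and other overlaps. Which replicate a list came from was read from the deposited descriptions; with 1 group there is no test.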

Additional observations from a re-analysis of the deposited data

How the results depend on the processing

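The number of markers with a start region was 7 in the pooled list, in each replicate alone, with −log10 q of at least 5, with start windows of 500 and 2500 bp, and when each gene kept its outermost start only, and Pax3 and Calcr lacked one each time. Regions in the marker windows numbered 55 with 50 kb to each side, 40 with 20 kb, 106 with 100 kb, 64 in the pooled list and 46 with −log10 q of at least 5. They ranged from 39 without replicate 2 to 59 without replicate 1. The median acetylated length of a marker window was 5024 bp, with 2104 bp for 20 kb to each side and 9945 bp for 100 kb, since these windows are shorter and longer. It ranged from 2411 bp without replicate 2, a list that is shorter as a whole, to 6371 bp without replicate 1. Regions shared with both replicates numbered 32, and 23 where 50% of both regions had to overlap. No paired analysis was possible because there is 1 group. Depth is unknown, so a region missing from a list was not detected there and is not shown to be absent.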
